A study of Mus musculus with 12 samples.

Results

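The genes described here are 38 antioxidant and Nrf2 target genes, taken by symbol from a list of antioxidant enzymes, their inhibitors and the regulators Nfe2l2 and Keap1, out of 24421 gene symbols counted. All 38 symbols were in the count tables. They fall into genes of heme, quinone and iron handling (6), glutathione genes (9), thioredoxin genes (6), peroxidases, dismutases and catalase (13), and Nrf2 control with Me1 (4). The libraries came from CD8+ T cells of the spleen of C57BL/6 mice, 6 from cells given an EZH2 inhibitor (EZH2i) and 6 from cells given the solvent DMSO. EZH2 is a histone methyltransferase whose mark goes with silenced genes, and the comparison asks which transcripts differ when its activity is blocked. Which inhibitor was used, its dose, its duration, the age of the mice and the culture conditions are not stated in the labels. Neither do the labels say whether the libraries came from separate mice or cultures, so p-values measure only the spread between these libraries. The total counts ran from 19610258 to 31206228 per EZH2i library and from 17215483 to 28092434 per DMSO library.

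Nrf2, encoded by Nfe2l2, is a transcription factor that Keap1 holds in the cytoplasm and marks for degradation. Oxidants and electrophiles modify Keap1, after which Nrf2 enters the nucleus, pairs with small Maf proteins and binds antioxidant response elements beside genes of glutathione synthesis, thioredoxin recycling, heme breakdown and NADPH supply. Hmox1, Nqo1, Gclc, Gclm, Txnrd1 and Srxn1 are its classical targets. In activated T cells these systems handle the hydrogen peroxide that accompanies receptor signalling and high mitochondrial activity.

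The core of the antioxidant response element was searched in promoter windows of 300 bases, from RefSeq on GRCm38.p6, as TGACNNNGC or TGAGNNNGC on either strand. Of 34 members with a window, 10 held it (29.4%), beside 30.8% of 27025 genes with a window and 35.8% of 8996 tested genes with one. The 10 were Blvrb, Gclm, Gstp1, Txn2, Txnrd1, Srxn1, Prdx1, Sod1, Nfe2l2 and Me1. The windows below are those of Srxn1 and Me1, the members with the largest EZH2i over DMSO ratios among those holding the motif, and of Prdx1 and Gstp1, which held the same letters and were not called between the groups. Each is printed along the gene's own strand with the match in capitals.
Srxn1, chr2:152105274-152105573, plus strand: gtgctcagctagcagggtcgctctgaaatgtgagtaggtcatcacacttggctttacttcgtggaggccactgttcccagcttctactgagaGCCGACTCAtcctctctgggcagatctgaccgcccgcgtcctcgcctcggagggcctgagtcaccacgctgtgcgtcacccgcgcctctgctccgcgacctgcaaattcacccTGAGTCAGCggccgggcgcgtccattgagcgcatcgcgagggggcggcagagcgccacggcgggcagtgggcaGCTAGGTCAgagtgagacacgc
Me1, chr9:86695865-86696164, minus strand: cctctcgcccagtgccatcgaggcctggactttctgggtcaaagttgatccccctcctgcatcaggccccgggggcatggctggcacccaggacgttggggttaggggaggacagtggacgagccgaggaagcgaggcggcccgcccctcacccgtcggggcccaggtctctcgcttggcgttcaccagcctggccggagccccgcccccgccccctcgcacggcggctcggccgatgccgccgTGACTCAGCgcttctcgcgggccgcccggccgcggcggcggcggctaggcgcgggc
Prdx1, chr4:116685349-116685648, plus strand: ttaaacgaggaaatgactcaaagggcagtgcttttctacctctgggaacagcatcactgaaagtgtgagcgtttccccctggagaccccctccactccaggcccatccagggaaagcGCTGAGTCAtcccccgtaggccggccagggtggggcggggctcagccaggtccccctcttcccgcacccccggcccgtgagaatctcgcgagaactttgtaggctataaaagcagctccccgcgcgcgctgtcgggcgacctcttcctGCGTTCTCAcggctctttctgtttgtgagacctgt
Gstp1, chr19:4037863-4038162, minus strand: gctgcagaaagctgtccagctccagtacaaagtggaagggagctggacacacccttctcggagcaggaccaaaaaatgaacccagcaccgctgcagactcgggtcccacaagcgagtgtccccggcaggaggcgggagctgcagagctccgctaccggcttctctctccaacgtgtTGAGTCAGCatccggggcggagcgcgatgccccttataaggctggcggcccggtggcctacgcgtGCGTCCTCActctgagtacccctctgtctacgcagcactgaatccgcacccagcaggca
Srxn1 held 3 matches, which began at -158, -45 and 28 from the start site. The match at -45 read TGAGTCAGC on the gene's strand, the same letters as the Gstp1 match at -74. In Me1 the match began at -6 and read TGACTCAGC, which Prdx1 also held, on the opposite strand, at -133. Among the members called below that have a window, Srxn1 was the only one with a match. A match is a description of letters and no proof of binding, and a window without one says only that these letters are not within it.

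Of the 38 members, 36 had enough counts to be tested. With edgeR's quasi-likelihood test and a Benjamini-Hochberg adjusted p under 0.05 as the limit for a call, 5 members rose in EZH2i, 2 fell and 29 were not called. The genes that rose were Hmox1, Nqo1, Gstk1, Srxn1 and Gpx7, and those that fell were Gpx1 and Prdx2. The 7 called are 19.4% of the tested members, and 19.3% of all 11727 tested genes were called, so the share of called members was near that of the transcriptome. The direction was also near it, since 13.9% of members rose, against 13.3% of all tested genes, and 5.56% fell, against 6.05%. The median log2 fold change of EZH2i over DMSO was -0.03 for the members and -0.01 for all tested genes, and under upper-quartile scaling these medians were 0.04 and 0.05. The median absolute log2 fold change was 0.15 for the members and 0.18 for all tested genes. At an unadjusted p under 0.05 the members numbered 12 (33.3%), beside 32.4% of all tested genes. Called members were few and lay in both directions.

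The libraries carry numbers 1 to 6 in each group, and the labels do not say what a number marks. Same-numbered libraries deviated together in part, most strongly number 6. For 3 of the 6 numbers, the best match in the other group was the library of the same number. Pairing by number is thus an assumption taken from these same data. With the number as a block in the model, 7 members were called higher and 8 lower (41.7%), but 49% of all tested genes were called as well, 24.7% higher and 24.3% lower. The 7 members called without the block were called with it, in the same directions. Those added were Blvrb and Gsto1, both higher, and Gclc, Txn2, Gpx4, Prdx1, Prdx4 and Sod2, all lower. With the block and without the libraries numbered 6 it was 9 higher and 12 lower, beside 49.7% of all tested genes, 26.3% higher and 23.3% lower. That fit added Txnip and Gss (adjusted p = 0.0447), higher, and Txn1, Ftl1 (0.0222), Txnrd1 (0.0407) and Prdx3 (0.00346), lower. DESeq2 called the same 5 members higher, beside 15% of all tested genes, and 4 lower, beside 9.59% (24.6% in all), adding Gclc and Prdx4. Upper-quartile scaling of the libraries in place of TMM kept the 5 members higher, beside 15.3%, and Gpx1 lower, beside 2.96% (18.3% in all), but not Prdx2. Under it 83.8% of all called genes were higher in EZH2i, against 68.7% with TMM. The CPM ranges of the groups did not overlap for 4 of the 36 tested members (11.1%), Hmox1, Nqo1, Gstk1 and Srxn1, all higher in EZH2i. Over all tested genes they did not overlap for 10.2%, 7.5% higher and 2.74% lower.

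**Figure D1:**
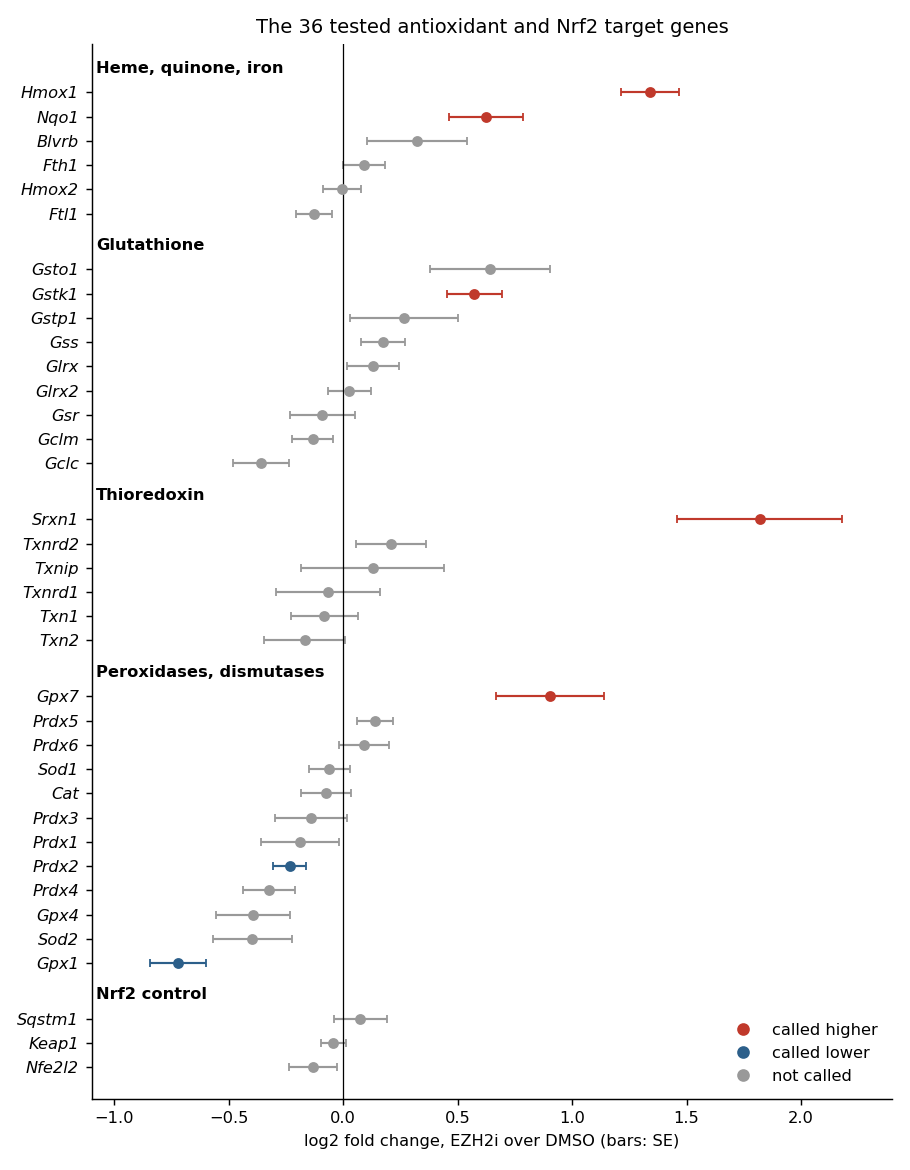
Log2 fold change of EZH2i over DMSO (x axis) for the 36 tested members by role, with bars of 1 standard error from edgeR. Red points were called higher in EZH2i, blue points lower, and grey points were not called; Srxn1 at 1.82 and Gpx1 at -0.72 mark the ends of the range.

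Among the genes of heme, quinone and iron handling, Hmox1 and Nqo1 rose in EZH2i and the other 4 were not called. The called share was 33.3%, beside 19.3% of all tested genes, and with the library number as a block 50%, beside 49%. Hmox1 encodes the inducible heme oxygenase, which opens heme to biliverdin, iron and carbon monoxide. Its lowest, median and highest levels were 9.51, 10.6 and 11.8 CPM (counts scaled to library size, with TMM factors) in EZH2i, against 3.10, 4.25 and 4.97 CPM in DMSO. The ranges lie well apart, so every EZH2i library necessarily exceeded the DMSO library of the same number. Hmox1 had a log2 fold change of 1.34 ± 0.126 (SE, n = 6 each; adjusted p = 1.21e-05), a 2.53-fold higher level. Leaving out any 1 library gave log2 fold changes between 1.27 and 1.40. The gene lies at chr8:75093621-75100589 (GRCm38, GENCODE M21).

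Nqo1, a quinone reductase that uses NADPH or NADH (chr8:107388225-107403206), had 9.32, 11.2 and 14.5 CPM in EZH2i, against 4.41, 7.69 and 8.94 CPM in DMSO. The lowest DMSO value was that of library 6, and no DMSO library reached the lowest EZH2i library. Nqo1 had a log2 fold change of 0.62 ± 0.161 (SE, n = 6 each; adjusted p = 0.0151, and 0.0101 to 0.0373 with any 1 library left out).

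Blvrb reduces biliverdin and flavins downstream of heme oxygenase. It had 6.38, 14.3 and 15.8 CPM in EZH2i, against 5.89, 11.0 and 13.3 CPM in DMSO, and the lowest value of each group was that of library 6. All 6 EZH2i libraries exceeded their same-numbered DMSO library, but the log2 fold change of 0.32 ± 0.219 was not called (SE; adjusted p = 0.343; with the library number as a block, 0.00476; without EZH2i library 6, 0.0361). Hmox2, the constitutive heme oxygenase, averaged 79.1 ± 8.30 CPM in EZH2i and 79.5 ± 6.73 CPM in DMSO (SD, n = 6 each). The ferritin subunits, which store the iron that heme breakdown frees, were not called. Ftl1 averaged 484 ± 23.1 CPM in EZH2i and 529 ± 63.2 CPM in DMSO, and Fth1 492 ± 48.1 CPM in EZH2i and 462 ± 55.0 CPM in DMSO. The log2 fold change was -0.13 for Ftl1 and 0.09 for Fth1.

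Hmox1 is also abundant in macrophages and in cells that take up red blood cells, so markers of these cells were read beside it. Of 7 erythroid markers counted, 6 were at 0 in every library (Hba-a1, Hba-a2, Hbb-bs, Hbb-bt, Alas2 and Slc4a1), and the list summed to at most 0.0432 CPM in EZH2i and 0.148 CPM in DMSO. The 10 macrophage and monocyte markers summed to 1.98 to 5.36 CPM in EZH2i and 2.62 to 5.87 CPM in DMSO. Fcgr1, Vcam1, C1qa and C1qc were at 0, and the 1 tested marker, Cd68, was not called (adjusted p = 0.503). Among the rest, too low to test, Lyz2 averaged 0.283 CPM in EZH2i and 0.194 CPM in DMSO. Cd14 averaged 0.124 CPM in EZH2i and 0.0139 CPM in DMSO, and both were higher in EZH2i in 5 same-numbered pairs. Csf1r (2 counts in EZH2i, 1 in DMSO) and C1qb (2 and 0) lay the same way, and Adgre1 (3 and 5) the other way. Summed dendritic markers were at 1.30 to 3.77 CPM in EZH2i and 0.179 to 1.69 CPM in DMSO, and Itgax among them rose. Of those too low to test, Zbtb46 averaged 0.573 CPM in EZH2i and 0.226 CPM in DMSO. Xcr1, also untested, averaged 0.0589 CPM in EZH2i and 0.135 CPM in DMSO. The NK marker list summed to 92.6 to 304 CPM in EZH2i and 45.3 to 121 CPM in DMSO, most of it Eomes, which effector CD8+ T cells express too. Its tested members Eomes and Klrb1c both rose, and Klra8 was at 0. CD4+ T cell markers summed to 23.8 to 34.8 CPM in EZH2i and 17.4 to 23.0 CPM in DMSO (Zbtb7b rose), and B cell markers to 14.9 to 21.9 CPM in EZH2i and 19.2 to 25.2 CPM in DMSO. Neutrophil markers summed to at most 0.173 CPM in EZH2i and 0.277 CPM in DMSO, and platelet markers to 1.49 to 3.80 CPM in EZH2i and 0.476 to 2.55 CPM in DMSO. The part of other cell types in the member results was not tested, and in bulk RNA fewer cells of a type and less RNA per cell cannot be told apart. The CD8+ T cell markers stood at 3890 to 5038 CPM summed in EZH2i and 4961 to 6157 CPM in DMSO, and 3 of 7 (Cd8a, Cd3g and Cd2) fell.

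**Figure D2:**
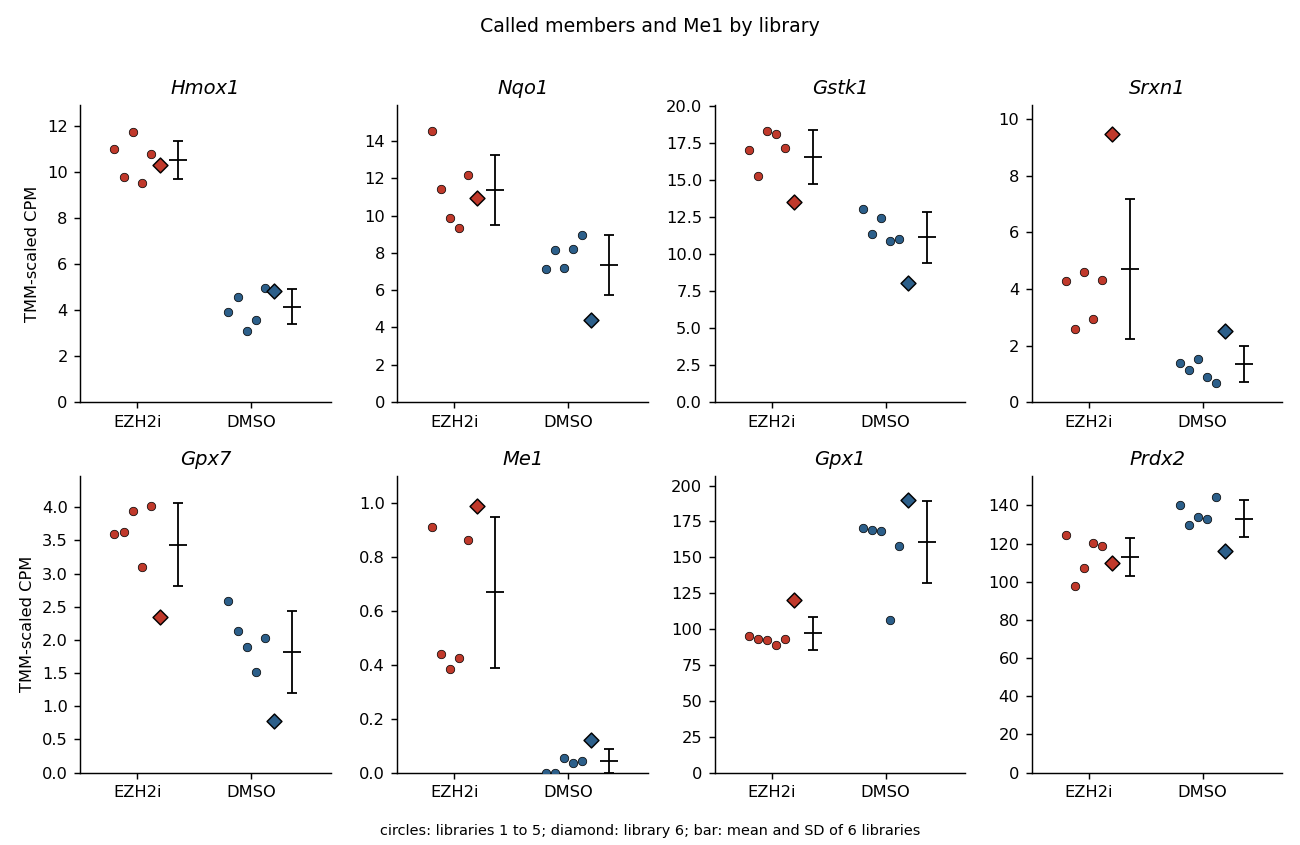
TMM-scaled CPM (y axes, each from 0) in the 6 EZH2i libraries (red, left) and the 6 DMSO libraries (blue, right) for the 7 called members and Me1, which was too low to test; diamonds mark library 6 and bars the mean and SD of the 6 libraries. For Hmox1, Nqo1, Gstk1, Srxn1 and Me1 the groups do not overlap, and for Gpx7, Gpx1 and Prdx2 they do.

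Of the 9 glutathione genes, Gstk1 rose and 8 were not called. The called share was 11.1%, beside 19.3% of all tested genes, and with the library number as a block 33.3%, beside 49%. Gstk1 encodes the kappa-class glutathione transferase of mitochondria and peroxisomes (chr6:42245935-42250447). Its levels were 13.5, 17.1 and 18.3 CPM in EZH2i, against 8.04, 11.2 and 13.0 CPM in DMSO. The lowest value of each group was library 6, and the groups did not overlap, though the gap between them was narrow. On the log2 scale Gstk1 was higher by 0.57 ± 0.118 (SE, n = 6 each; adjusted p = 0.00412, and 0.00102 to 0.0126 with any 1 library left out).

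Glutathione is made in a pair of steps, of which glutamate-cysteine ligase catalyses the first and limiting one. Gclc, its catalytic subunit, had 46.4, 53.9 and 65.5 CPM in EZH2i, against 54.3, 69.7 and 94.1 CPM in DMSO. The ranges overlapped, while every EZH2i library was below the DMSO library of its number. Its log2 fold change of -0.36 ± 0.122 (SE) missed the limit at an adjusted p of 0.0570, and with the library number as a block the adjusted p was 0.000113. It passed the limit without EZH2i library 1 (0.0468), EZH2i library 6 (0.0236) or DMSO library 4 (0.0175). Gclm, the modifier subunit of the same ligase, had 30.7, 33.9 and 39.9 CPM in EZH2i, against 31.2, 38.6 and 43.4 CPM in DMSO. These values overlap nearly throughout, with a log2 fold change of -0.13 ± 0.0895 (SE; adjusted p = 0.333). Gss, which completes the tripeptide, was at 19.6 ± 2.28 CPM in EZH2i and 17.3 ± 1.73 CPM in DMSO (SD; adjusted p = 0.244).

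Gsto1, an omega-class glutathione transferase, had 31.0, 36 and 68.4 CPM in EZH2i, against 18.3, 22.5 and 49.8 CPM in DMSO. The highest value of each group was library 6, and only that DMSO library lay within the EZH2i range. Its log2 fold change of 0.64 ± 0.262 was as large as that of Nqo1 but was not called (SE; adjusted p = 0.108; with the library number as a block, 3.65e-06). Without DMSO library 6 it was 0.92 (adjusted p = 0.00437), and without both libraries numbered 6 it was 0.72 (7.95e-06). Gstp1, the pi-class transferase, averaged 22.5 ± 9.50 CPM in EZH2i and 18.7 ± 3.12 CPM in DMSO (SD; log2 fold change 0.27; adjusted p = 0.483), and its near copy Gstp2 was at 0 to 0.194 CPM in all libraries. Gstp1 had a log2 fold change of 0.07 without both libraries numbered 6. Gsr, which reduces oxidised glutathione, and the glutaredoxins Glrx and Glrx2, which use glutathione to reduce proteins, had log2 fold changes of -0.09, 0.13 and 0.03, with adjusted p-values of 0.703, 0.477 and 0.877.

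Of the 6 thioredoxin genes, Srxn1 rose, with the largest log2 fold change of all tested members. Sulfiredoxin, its product, repairs peroxiredoxins whose cysteine has been over-oxidised. Srxn1 (chr2:152105516-152111376) had 2.58, 4.31 and 9.47 CPM in EZH2i, against 0.691, 1.26 and 2.5 CPM in DMSO. In both groups library 6 was highest, and DMSO library 6 came close to the lowest EZH2i library without reaching it. On the log2 scale Srxn1 was higher by 1.82 ± 0.360 (SE, n = 6 each; adjusted p = 0.00308), a 3.53-fold higher level resting on 781 counts in EZH2i and 172 in DMSO. It was 1.5 to 2.07 with any 1 library left out, and 1.75 without both libraries numbered 6. Its promoter window, printed above, holds 3 copies of the searched letters.

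The other 5 thioredoxin genes were not called. Txnrd1, the cytosolic thioredoxin reductase and a classical Nrf2 target, had 108, 119 and 256 CPM in EZH2i, against 120, 130 and 228 CPM in DMSO. In each group library 6 stood apart as the highest, and the other 5 libraries overlapped between groups. The log2 fold change was -0.07 ± 0.226 (SE; adjusted p = 0.873). Txnip, which binds and inhibits thioredoxin and restrains glucose uptake, had 232, 848 and 938 CPM in EZH2i, against 278, 756 and 882 CPM in DMSO. Library 6 was by far the lowest of both groups, and the rest overlapped. The log2 fold change was 0.13 ± 0.313 (SE; adjusted p = 0.816), and without both libraries numbered 6 it was 0.16 with an adjusted p of 0.0448.

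Txn1, cytosolic thioredoxin, averaged 236 ± 65.2 CPM in EZH2i and 250 ± 18.3 CPM in DMSO (SD, n = 6 each; adjusted p = 0.742). EZH2i library 6 was its highest at 356 CPM, and without both libraries numbered 6 its log2 fold change was -0.23 (adjusted p = 0.0383). Mitochondrial thioredoxin Txn2 averaged 94.2 ± 23.3 CPM in EZH2i and 106 ± 27.2 CPM in DMSO (adjusted p = 0.562; with the library number as a block, 0.0212). Txnrd2, its reductase in mitochondria, averaged 8.29 ± 1.86 CPM in EZH2i and 7.20 ± 1.11 CPM in DMSO (adjusted p = 0.389). Srxn1 was the 1 called gene among these 6 (16.7%), beside 19.3% of all tested genes. With the library number as a block the share was 33.3%, beside 49%.

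Of 12 tested peroxidases, dismutases and catalase, Gpx7 rose and Gpx1 and Prdx2 fell (25%, beside 19.3% of all tested genes). With the library number as a block the count was 1 higher and 6 lower (58.3%), the added genes being Gpx4, Prdx1, Prdx4 and Sod2. Over all tested genes the block called 49%, 24.7% higher and 24.3% lower. Gpx1 encodes the selenium-dependent glutathione peroxidase of the cytosol and mitochondria, which removes hydrogen peroxide (chr9:108338903-108340343). It had 88.9, 93.0 and 120 CPM in EZH2i, against 106, 169 and 190 CPM in DMSO. The ranges overlapped only because EZH2i library 6 was above DMSO library 4, and each EZH2i library was below the DMSO library of its number. Gpx1 had a log2 fold change of -0.72 ± 0.124 (SE, n = 6 each; adjusted p = 0.00114), and leaving out any 1 library gave -0.82 to -0.67.

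Gpx4, the peroxidase that reduces lipid hydroperoxides in membranes and so protects T cells from ferroptosis, had 83.0, 144 and 153 CPM in EZH2i, against 125, 194 and 213 CPM in DMSO. Library 6 was the lowest of each group, DMSO library 4 was next to lowest among DMSO, and all 6 same-numbered pairs were lower in EZH2i. Its log2 fold change of -0.39 ± 0.161 was not called (SE; adjusted p = 0.107; with the library number as a block, 9.82e-05; without DMSO library 6, 0.0350). Gpx7, a peroxidase of the endoplasmic reticulum without selenium (chr4:108400390-108406961), went the other way at a low level. It had 2.35, 3.61 and 4.02 CPM in EZH2i, against 0.774, 1.96 and 2.59 CPM in DMSO. The overlap came from EZH2i library 6, the lowest of its group. Gpx7 had a log2 fold change of 0.90 ± 0.236 (SE, n = 6 each; adjusted p = 0.0165, and 0.00445 to 0.0406 with any 1 library left out).

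Gpx3, the secreted glutathione peroxidase, was too low to test. It had 15 counts over all EZH2i libraries and 1 over all DMSO libraries, a ratio of 12.5 after scaling for library size (exact 95% interval 1.93 to 528, counting error only). At such counts its level is close to 0 in both groups.

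Among the peroxiredoxins, which reduce peroxides with thioredoxin or glutathione, Prdx2 fell and 5 were not called. Prdx2 (chr8:84969587-84974834) had 97.9, 114 and 125 CPM in EZH2i, against 116, 133 and 144 CPM in DMSO. The lowest DMSO library, number 6, lay within the EZH2i range, as did no other DMSO library. Prdx2 had a log2 fold change of -0.23 ± 0.0734 (SE, n = 6 each; adjusted p = 0.0400). The call is marginal: upper-quartile scaling gave an adjusted p of 0.148, and it was lost on leaving out any of EZH2i libraries 2 (0.0829), 3 (0.0907), 4 (0.0512) or 5 (0.0569) or DMSO libraries 1 (0.0788), 2 (0.0572), 3 (0.0643), 4 (0.0515) or 5 (0.0950). Exons of Prdx2 overlap Junb and Rnaseh2a on the other strand, and Junb was not called (log2 fold change -0.11; adjusted p = 0.655). Whether the counting used strand is not given in the sources used here, so reads of these neighbours cannot be told apart from those of Prdx2.

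Prdx1, a cytosolic peroxiredoxin and Nrf2 target, had 246, 307 and 531 CPM in EZH2i, against 336, 356 and 475 CPM in DMSO. Library 6 was the highest of both groups, and the other EZH2i libraries were all below the lowest DMSO library. Its log2 fold change of -0.19 ± 0.171 was not called (SE; adjusted p = 0.495; with the library number as a block, 0.0166), and without EZH2i library 6 it was -0.38 (adjusted p = 0.0137). Prdx4, the peroxiredoxin of the endoplasmic reticulum, averaged 43.5 ± 7.35 CPM in EZH2i and 54.4 ± 5.82 CPM in DMSO (SD), a log2 fold change of -0.32 that was not called (adjusted p = 0.0642; with the library number as a block, 0.000332; without EZH2i library 6, 0.0101). Mitochondrial Prdx3 averaged 65.4 ± 18.4 CPM in EZH2i and 72.1 ± 8.91 CPM in DMSO. For Prdx5 and Prdx6 the log2 fold changes were 0.14 and 0.09, and none of these 3 was called, with adjusted p-values of 0.593, 0.235 and 0.615.

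The superoxide dismutases turn superoxide into hydrogen peroxide, and catalase breaks that down in peroxisomes. Sod1, of the cytosol, had 208, 233 and 261 CPM in EZH2i, against 199, 259 and 276 CPM in DMSO, a log2 fold change of -0.06 ± 0.0901 (SE; adjusted p = 0.693). Sod2, of the mitochondrial matrix, had 29.3, 31.7 and 55.7 CPM in EZH2i, against 39.9, 43.6 and 65.1 CPM in DMSO. Within libraries 1 to 5 the Sod2 ranges did not overlap, while library 6 was the highest of each group by a wide margin. Its log2 fold change of -0.40 ± 0.171 was not called (SE; adjusted p = 0.126; with the library number as a block, 3.20e-05), and without EZH2i library 6 it was -0.58 (adjusted p = 0.00243). Cat had 105, 155 and 173 CPM in EZH2i, against 139, 162 and 169 CPM in DMSO, with overlapping values and a log2 fold change of -0.07 ± 0.11 (SE; adjusted p = 0.693).

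The transcripts of the Nrf2 switch itself were not called, and 0 of its 3 tested genes passed an unadjusted p of 0.05, the DESeq2 limit or the limit with the library number as a block. Nfe2l2 had 63.8, 80.5 and 85.0 CPM in EZH2i, against 69.1, 84.2 and 104 CPM in DMSO, a log2 fold change of -0.13 ± 0.104 (SE; adjusted p = 0.426). Keap1 had 73.1, 78.6 and 79.1 CPM in EZH2i, against 73.9, 79.1 and 86.8 CPM in DMSO, a log2 fold change of -0.04 ± 0.0554 (SE; adjusted p = 0.643), which was 0.02 under upper-quartile scaling. The ranges overlapped for both genes, with 3 DMSO libraries above the highest EZH2i library in each. Nrf2 is controlled mostly through its protein, which these counts do not measure. Sqstm1, an autophagy adaptor that binds Keap1, averaged 147 ± 23.5 CPM in EZH2i and 140 ± 15.9 CPM in DMSO (SD; adjusted p = 0.709).

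Me1, the cytosolic malic enzyme that makes NADPH and is an Nrf2 target (chr9:86581371-86695953), was too low for the main test. It had 0.384, 0.652 and 0.991 CPM in EZH2i, against 0, 0.0401 and 0.119 CPM in DMSO. All EZH2i libraries were above all DMSO libraries, and 2 DMSO libraries held no count. The summed counts were 106 in EZH2i and 5 in DMSO, a ratio of 17.7 after scaling for library size (exact 95% interval 7.36 to 55.7, counting error only). When no filter on low counts was used, Me1 and Gpx3 were both called higher, which made 7 members higher in that fit, beside 10.8% of the 16593 genes it tested. Without a filter on low counts the test rests on few reads for such genes, so they are given by their counts.

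The members spanned a wide range of levels. Per kilobase of exon, the mean levels ran from 361 CPM per kb in EZH2i and 395 CPM per kb in DMSO for Ftl1 down to 0.0499 CPM per kb in EZH2i and 0.00483 CPM per kb in DMSO for Gpx3. Hmox1 ranked 28 of 38 in EZH2i, at 6.02 CPM per kb, and 32 in DMSO, at 2.37 CPM per kb. Srxn1 ranked 36 in both groups, at 1.67 CPM per kb in EZH2i and 0.481 CPM per kb in DMSO. Gpx1 ranked 7 in EZH2i, at 67.4 CPM per kb, and 6 in DMSO, at 111 CPM per kb, and Gpx4 took the neighbouring rank in each.

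The direction of the member calls followed level as it did in all tested genes. The tested genes were divided into 4 bins of about equal size by edgeR's average log2 CPM. In the lowest bin, 30% of 2932 genes were higher in EZH2i and 0.887% lower, and 3 of the 4 members there, Hmox1, Srxn1 and Gpx7, were higher, with Txnrd2 not called. The next bin had 13.8% higher and 3.75% lower, with Nqo1 and Gstk1 higher among 6 members. In the third, 5.83% were higher and 7.88% lower, and none of the 8 members was called. In the top bin, 3.44% were higher and 11.7% lower, and Gpx1 and Prdx2 were lower among 18 members. Hmox1, Srxn1 and Gpx7 thus lie in the bin where higher calls were most frequent, and Gpx1 and Prdx2 where lower calls were. Nqo1 and Gstk1 lie in a bin whose share of higher calls, 13.8%, was near the 13.3% of all tested genes.

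**Figure D3:**
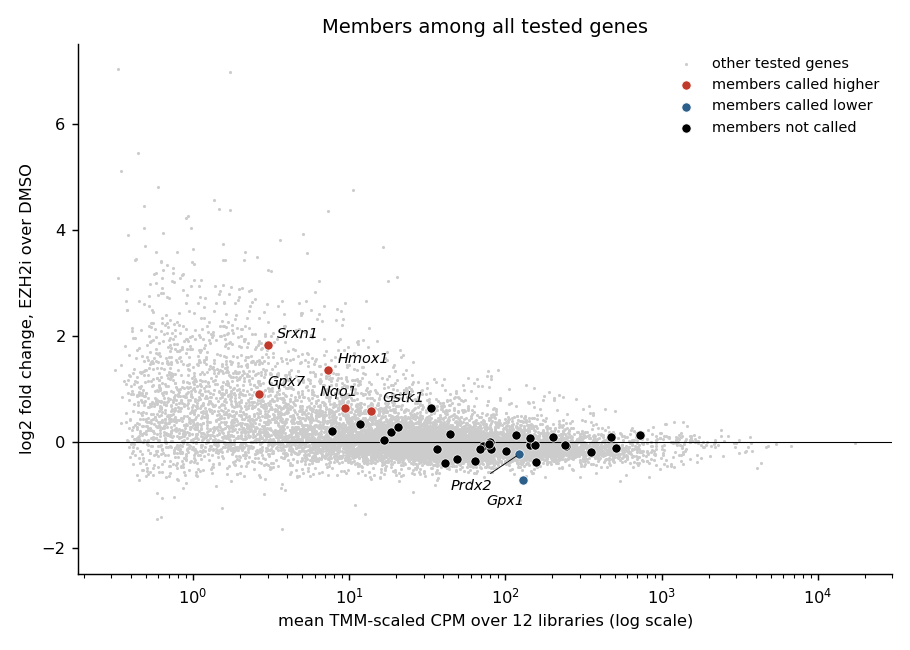
Mean TMM-scaled CPM over the 12 libraries (x axis, log scale) against the log2 fold change of EZH2i over DMSO (y axis) for all tested genes (grey) and the members (red, called higher; blue, called lower; black, not called). The 5 members called higher lie at the left, among the many low genes with positive changes, and Gpx1 and Prdx2 lie further right.

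Beyond the members, 84 further genes of the same pathways were counted, of which 68 were tested. Of these, 4 were called higher and 7 lower (16.2%), beside 19.3% of all tested genes. Gstm5, among the 4, could pass the filter on low counts through EZH2i alone, which leaves 3. With the library number as a block 8 were higher and 18 lower (38.2%), beside 49%. Gstm5 is among these 8 as well and is counted in both percentages of the 68. Of the 8 tested partners and ligase subunits of Nrf2 (Maff, Mafg, Mafk, Bach1, Bach2, Nfe2l1, Cul3 and Rbx1), 0 were called by edgeR or by DESeq2 and 0 had an unadjusted p under 0.05. With the block, Bach2, a repressor that competes for small Maf proteins, was higher (log2 fold change 0.22; adjusted p = 0.00965) and Rbx1, a subunit of the ligase that Keap1 recruits, lower (-0.23; 0.00597).

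Of 8 enzymes of the pentose phosphate pathway and of NADPH supply, Pgls rose and Taldo1 and Idh1 fell. That is 37.5%, beside 19.3% of all tested genes. Pgls, of the pentose phosphate pathway, averaged 75.4 ± 6.93 CPM in EZH2i and 61.2 ± 8.23 CPM in DMSO (SD, n = 6 each; adjusted p = 0.0485). Transaldolase Taldo1 averaged 148 ± 10.8 CPM in EZH2i and 173 ± 11.4 CPM in DMSO (adjusted p = 0.0337). Idh1, which makes NADPH in the cytosol, averaged 11.9 ± 2.17 CPM in EZH2i and 16.7 ± 2.21 CPM in DMSO (adjusted p = 0.0244). With the library number as a block all 3 were called (adjusted p = 0.00224 for Pgls, 0.00310 for Taldo1 and 0.000218 for Idh1), and so were Pgd (log2 fold change -0.30; 0.000175) and Tkt (-0.22; 0.00267), lower in 6 of 6 same-numbered pairs, and Idh2 (0.14; 0.0474), higher in 6 of 6. The block thus called 75% of these 8 genes, beside 49% of all tested genes. G6pdx and Nnt were called neither with the block nor without it. Without the block the calls depended on single libraries. Pgls was lost without any of EZH2i libraries 1, 3, 4 and 5 or DMSO libraries 1, 2, 3 and 5 (adjusted p up to 0.111), and Taldo1 without any of EZH2i libraries 1 to 5 or DMSO libraries 1, 2, 3 and 5 (up to 0.0976). Idh1 was lost without DMSO library 5 (0.0598), and upper-quartile scaling lost both Taldo1 (0.119) and Idh1 (0.0536).

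Of 19 other glutathione genes, Gstm1 rose, Ggt1 fell and Gstm5 was called higher (15.8%, beside 19.3% of all tested genes). With the block 3 were higher, Gstm5 among them, and 3 lower (31.6%), beside 49% of all tested genes. Gstm5, a mu-class transferase, had 119 counts over the EZH2i libraries and 6 over the DMSO libraries, or 0.726 ± 0.199 CPM in EZH2i and 0.0428 ± 0.0496 CPM in DMSO (SD). It passed the filter on low counts through the EZH2i libraries alone, so a difference was built into its being tested, and it is given by its summed counts, a ratio of 16.6 (exact 95% interval 7.39 to 46.1, counting error only). Gstm1 averaged 5.80 ± 1.57 CPM in EZH2i and 2.9 ± 1.05 CPM in DMSO (adjusted p = 0.0259). The Gstm1 call was lost without any of EZH2i libraries 1 to 5 or DMSO library 5 (up to 0.0563). The mu-class genes are near copies of each other, and how reads shared between them were counted is not stated in the labels. Ggt1, which splits extracellular glutathione, averaged 17.7 ± 1.03 CPM in EZH2i and 21.6 ± 1.44 CPM in DMSO (adjusted p = 0.0134), with no overlap between the groups.

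Of 19 other thioredoxin-fold and repair genes, Sesn2 rose (5.26%, beside 19.3% of all tested genes). With the block Sesn2 was higher and 5 were lower (31.6%), beside 49% of all tested genes. Sestrin 2, the product of Sesn2, is a stress-induced inhibitor of growth signalling. It averaged 18.6 ± 5.68 CPM in EZH2i and 12.5 ± 1.63 CPM in DMSO (SD; adjusted p = 0.0295), with EZH2i library 6 highest at 30.0 CPM, and the call was lost without DMSO library 1, 2 or 5 (up to 0.0807). Of 9 genes that supply selenocysteine, the residue at the active site of Gpx1, Gpx4 and the thioredoxin reductases, Pstk and Sephs1 fell. That is 22.2%, beside 19.3% of all tested genes. With the block 3 were lower (33.3%), beside 49% of all tested genes. Pstk, the kinase that phosphorylates the charged precursor transfer RNA, averaged 11.1 ± 1.2 CPM in EZH2i and 14.9 ± 1.84 CPM in DMSO (adjusted p = 0.0113). Sephs1, a paralogue of the selenophosphate synthetase Sephs2, averaged 95.2 ± 8.23 CPM in EZH2i and 114 ± 8.44 CPM in DMSO (adjusted p = 0.0254). The Sephs1 call was lost under upper-quartile scaling (0.0656) and without any of EZH2i libraries 3, 4 and 5 or DMSO libraries 1, 2 and 5 (up to 0.0699).

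Of 5 tested genes of the NADPH oxidase, the enzyme that makes superoxide, Cyba and Ncf4 fell. The called share was 40%, beside 19.3% of all tested genes, and with the library number as a block 60%, beside 49%. Cyba, a membrane subunit, averaged 120 ± 10.9 CPM in EZH2i and 158 ± 12 CPM in DMSO (SD, n = 6 each), a log2 fold change of -0.40 (adjusted p = 0.00206). Ncf4, a cytosolic subunit, averaged 42.0 ± 5.37 CPM in EZH2i and 60.3 ± 4.39 CPM in DMSO, a log2 fold change of -0.52 (adjusted p = 0.000956). For both genes the groups did not overlap (40% of the 5, beside 10.2% of all tested genes), and both calls held with any 1 library left out.

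The libraries numbered 6 stood apart from the other 5 libraries of their groups on the first 2 principal components of all tested genes (45.2% and 33.8% of the variance). Of the 36 tested members, 33 deviated to the same side in EZH2i library 6 and DMSO library 6. In both groups library 6 was at least 1.5-fold above the mean of the other 5 for Gsto1, Txn2, Txnrd1, Srxn1 and Sod2, and at least 1.5-fold below it for Blvrb, Txnip, Gpx4 and Gpx7. For Txnip, EZH2i library 6 held 232 CPM and the other 5 EZH2i libraries 868 ± 54.8 CPM, while DMSO library 6 held 278 CPM and the other 5 DMSO libraries 781 ± 62.8 CPM (SD, n = 5). For Txnrd1, EZH2i library 6 held 256 CPM and the other 5 of EZH2i 117 ± 10.1 CPM, while DMSO library 6 held 228 CPM and the other 5 of DMSO 131 ± 9.79 CPM. For Txnip and Txnrd1 the libraries numbered 6 differed from their groups by more than EZH2i differed from DMSO.

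**Figure D4:**
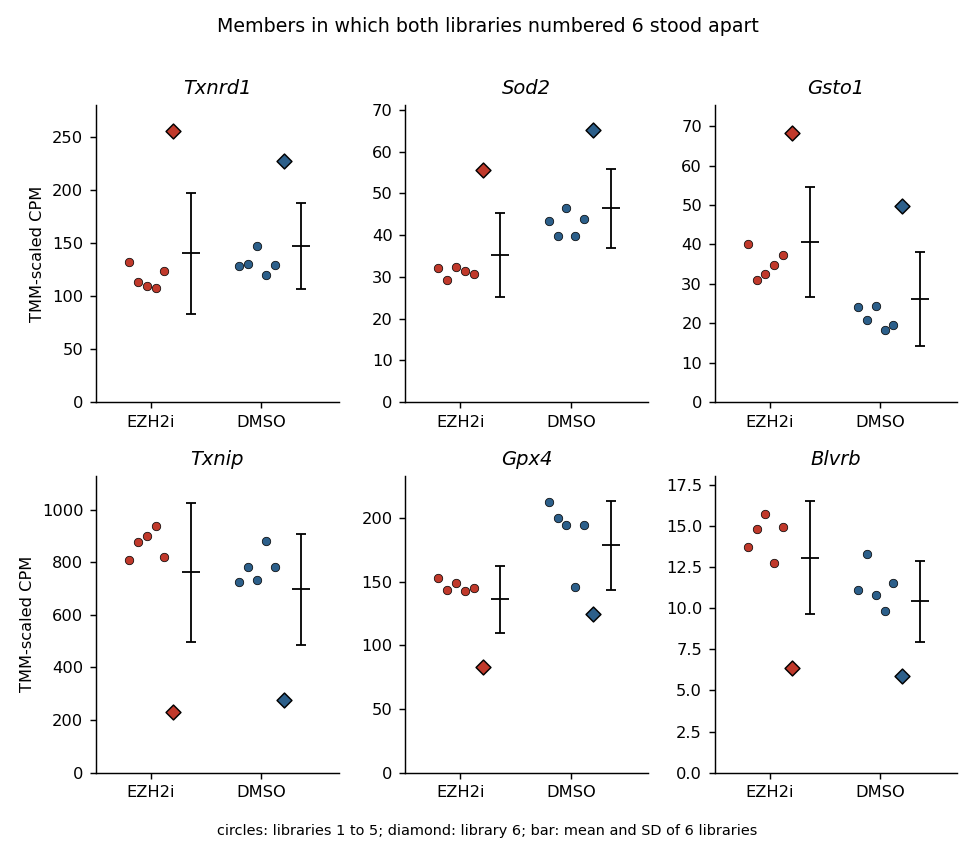
TMM-scaled CPM (y axes, each from 0) in the EZH2i libraries (red, left) and DMSO libraries (blue, right) for 6 members; diamonds mark library 6, circles libraries 1 to 5, and bars the mean and SD of the 6 libraries. Library 6 is the highest of both groups for Txnrd1, Sod2 and Gsto1 and the lowest of both for Txnip, Gpx4 and Blvrb.

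Without both libraries numbered 6, the 7 called members kept their calls and directions, and 8 members were higher and 8 lower, beside 24.1% and 20% of all tested genes. The additions were Blvrb, Gsto1 and Txnip, higher, and Gclc, Txn1, Gpx4, Prdx1, Prdx4 and Sod2, lower. Among libraries 1 to 5, Sod2 averaged 31.1 ± 1.2 CPM in EZH2i and 42.7 ± 2.85 CPM in DMSO, a log2 fold change of -0.45 (SD, n = 5 each). Gpx4 averaged 147 ± 4.07 CPM in EZH2i and 189 ± 25.6 CPM in DMSO among the same libraries (-0.36), and Gsto1 35.1 ± 3.67 CPM in EZH2i and 21.4 ± 2.72 CPM in DMSO (0.72). The share of all tested genes called was then 44.1%, beside 16 of the 36 tested members.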

How the data were processed

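Polyadenylated RNA was sequenced as single-end reads from libraries of a stranded Illumina TruSeq kit, per the labels' protocols. Each library has 1 deposited table of raw counts by gene symbol, not normalized. The authors' tools, per the submitters' processing notes, were TopHat2 2.1.1, featureCounts, SAMtools 1.9, Trimmomatic 0.38 and FastQC 0.11.7, on the build GRCm38 (mm10). Not given in the sources used here are the annotation, the strand setting and how reads with several matches were counted. Genes with near copies or processed copies, and members whose exons overlap another gene (Hmox2, Ftl1, Gclm, Gss, Txnrd2, Txnip, Prdx2, Prdx5, Keap1, Sqstm1 and Me1), are therefore uncertain.

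Counts were tested with edgeR 4.0.16 in R 4.3.3: filterByExpr at its defaults, TMM scaling, a model with the group alone, and the two-sided quasi-likelihood test with Benjamini-Hochberg adjustment over all 11727 tested genes, called under 0.05. A gene low in one group can pass the filter through the other. Standard errors were taken from the fold change and the F statistic (absolute log2 value over the root of F). The intervals for Gpx3 and Me1 are exact at 95%. The fit was tested on simulated counts. It recovered 24 of 67 genes changed 1.5-fold, 56 of 67 changed 2-fold and 65 of 66 changed 4-fold. It made 5 false calls among unchanged genes. Changes near 1.5-fold can thus be missed, and a member not called is not shown to be unchanged. Positions and exon lengths come from GENCODE M21, promoter windows from RefSeq. The members, the further gene lists, the marker lists and the genes given in full were chosen with earlier results of these data known, and the letters of the promoter motif after the windows had been seen. Every called member was to be given in full, as were 14 named members whether called or not, Hmox1, Nqo1 and Srxn1 among them. Called genes of the other lists were to be given by name.

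Alternatives were DESeq2 1.42.0, its size factors, upper-quartile scaling, no filter on low counts, the library number as a block, each library left out, and both libraries numbered 6 left out; fits without libraries kept the same tested genes. The labels do not say what a library number marks. Same-numbered libraries correlated in their deviations from the group means at 0.213, 0.445, 0.286, 0.527, 0.317 and 0.847 for numbers 1 to 6. All passed 0.1, the limit set for pairing, but without number 6 the lowest was 0.0371, below that limit. The number was used as a block in alternatives only, and the main model had the group alone. No pair of libraries within a group agreed within sampling noise.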

Additional observations from a re-analysis of the deposited data

Results flagged for a closer look

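In each group of 6 libraries, a highest or lowest library was marked where its gap to the next library, as a share of the range of the group, passed Dixon's critical value. This was looked at for the members and for the called genes of the other lists, 94 groups in all, and marked 23 libraries, of which 22 were numbered 6. Chance marks about 1 in 20 groups.

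Among the members, 6 were marked in both groups, each on the same side. Gsto1 was at 68.4 CPM in EZH2i library 6 (31.0 to 40.2 CPM in the other 5) and 49.8 CPM in DMSO library 6 (18.3 to 24.4). Txnrd1 was at 256 CPM in EZH2i library 6 (108 to 132) and 228 CPM in DMSO library 6 (120 to 147). Prdx1 was at 531 CPM in EZH2i library 6 (246 to 321) and 475 CPM in DMSO library 6 (336 to 380). Sod2 was at 55.7 CPM in EZH2i library 6 (29.3 to 32.3) and 65.1 CPM in DMSO library 6 (39.9 to 46.6). On the low side, Txnip was at 232 CPM in EZH2i library 6 (808 to 938) and 278 CPM in DMSO library 6 (726 to 882), and Sqstm1 at 103 CPM in EZH2i library 6 (144 to 166) and 108 CPM in DMSO library 6 (144 to 152).

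In EZH2i library 6 alone, the marked high values were 95.1 CPM for Gsr, 140.0 CPM for Txn2, 9.47 CPM for Srxn1, 120.4 CPM for Gpx1 and 30.0 CPM for Sesn2, and the low values were 6.38 CPM for Blvrb, 83.0 CPM for Gpx4 and 2.66 CPM for Gstm1. In DMSO library 6 alone they were 9.29 CPM for Txnrd2 and 69.0 CPM for Ncf4, both high. The 1 value outside the libraries numbered 6 was Pgls in DMSO library 4, low at 45.4 CPM.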

How the results depend on the processing

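Hmox1, Nqo1, Gstk1, Srxn1 and Gpx7 were called higher and Gpx1 lower in every alternative; the Prdx2 call was lost under upper-quartile scaling and without any of 9 single libraries. Members called lower numbered 4 by DESeq2 and 1 with upper-quartile scaling. With the replicate block, 7 members were higher and 8 lower; without both libraries numbered 6, 8 and 8; with both choices together, chosen after seeing the data, 9 and 12. On all 12 libraries the block changed no member call other than the 8 it added. Together with leaving out both libraries numbered 6 it also called Gss higher and Ftl1, Txnrd1 and Prdx3 lower. All genes called higher numbered 2892 with the block, 2824 without both libraries numbered 6 and 3089 with both; those called lower 2849, 2350 and 2738, and 1125 by DESeq2 and 347 with upper-quartile scaling. Other pathway genes numbered 8, 9 and 10 higher and 18, 18 and 19 lower under the same 3 settings, and 4 lower with upper-quartile scaling. Gstm5, which passed the filter through EZH2i alone, is among those higher in these 3 settings and with any 1 library left out. Leaving out 1 library gave 5 to 6 members higher and 1 to 6 lower, 1294 to 2230 genes higher and 431 to 1788 lower, and 1 to 5 other pathway genes higher and 4 to 15 lower.

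Signs turned for uncalled members near 0. The log2 fold change of Hmox2 was 0.055 with upper-quartile scaling, 0.035 without both libraries numbered 6, and 0.038 with the block as well; under upper-quartile scaling Sod1 was at 0.00016 and Keap1 at 0.018. With 1 library left out the log2 fold changes ran from -0.12 to 0.011 for Cat, -0.032 to 0.066 for Glrx2, -0.20 to 0.0059 for Gsr, -0.047 to 0.045 for Hmox2, -0.018 to 0.14 for Prdx6, -0.034 to 0.32 for Txnip and -0.33 to 0.10 for Txnrd1. The cause was not tested. Of the members' 684 values under alternatives, 614 kept direction and side of the limit, 42 gained a call, 10 lost one and 18 turned sign. Depth limits Gpx3 and Me1, and to a lesser degree Srxn1 and Gpx7.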
